A study of Mus musculus with 6 samples.

Results

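Divergent coding promoters are places in the genome where a protein-coding gene on the minus strand and another on the plus strand start close together and run in opposite directions. The 633 H3K27ac peaks described here lay over such promoter pairs in control mouse embryonic stem cells (mESCs). They were chosen by the list of control peaks and the gene annotation: autosomal, at least 1 kb and under 10 kb wide, and overlapping the promoters (1 kb each side of the transcription start site, TSS) of 2 coding genes whose TSSs diverged at a distance of at most 1000 bp. They made up 633 of 22973 control peaks, and 633 of the 17736 autosomal peaks of that width, and they carried 647 gene pairs with 1281 genes, called member pairs here. Of these peaks, 619 held 1 pair and 14 held 2 pairs. In most of the 14 the pairs shared a gene, and some, such as Chtf8/Utp4 and Arl16/Hgs, were the same gene names annotated more than once. Peak width, the presence of a peak and the TSS distance were used in the choice, so counts and values of these are descriptions.

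The cells were E14Tg2A mESCs with Rosa26-Cre and Oct4-IRES-Puro alleles, kept with LIF and inhibitors of MEK and GSK3. H3K27ac was measured by ChIP-seq with chromatin of human HEK293T cells, a kidney-derived line, added as a spike-in. Control cells received the solvent DMSO, and further cells were given for 120 min either 100 nM NVP-2, a CDK9 inhibitor, or 800 nM actinomycin D, which binds DNA and stops RNA polymerases, with 2 replicates of each. Only the control peak list, in which both control replicates were pooled, was analysed here. It gives positions without heights, scores or reads, so the reads behind a peak cannot be read from it, there is no replicate error and no comparison between treatments was made. All intervals below are 95% intervals that cover counting error only, and genes of a pair share sequence and are not independent of each other. Of 8 markers of embryonic stem cells, among them Pou5f1, Nanog and Sox2, all 8 had a control peak at the promoter. The fibroblast markers Col1a1, Col1a2 and Thy1 had none, nor did 4 markers of other tissues, whereas 2 of 3 primitive endoderm markers (Gata4, Gata6) and 1 of 3 trophoblast markers (Eomes) had a peak.

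Acetylation of histone H3 at lysine 27 is deposited by the acetyltransferases p300 and CBP and marks active promoters and enhancers. Many mammalian genes are arranged head to head, with a shared stretch of DNA between them from which RNA polymerase II transcribes in both directions, and such gene pairs often encode housekeeping functions. These promoters are usually CpG islands without a TATA box, and factors of the ETS family, NRF1, NF-Y and YY1 are known to bind many promoters of this kind.

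The stretch between the TSSs is short enough to be printed for some of the pairs that were listed as known to share a promoter. These were member pairs with TSSs 40 to 300 bp apart and no annotated exon between them. Of 10 such pairs without regard to exons, 6 had an exon there and 4 are shown, all in GRCm38 (mm10), read from the RefSeq sequence of that build on the plus strand from 5′ to 3′. The minus-strand gene starts just left of each sequence and the plus-strand gene just right of it. Capitals mark matches to any of the 9 motifs that are described further on. Aimp2/Pms2 lies at chr5:143909848-143909963, Xpc/Lsm3 at chr6:91515889-91515927, Timm23/Parg at chr14:32201899-32201948 and Psmb1/Tbp at chr17:15499752-15499887.
Aimp2/Pms2: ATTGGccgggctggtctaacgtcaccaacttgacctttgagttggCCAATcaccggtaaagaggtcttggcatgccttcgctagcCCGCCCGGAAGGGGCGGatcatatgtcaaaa
Xpc/Lsm3: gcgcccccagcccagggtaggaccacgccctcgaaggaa
Timm23/Parg: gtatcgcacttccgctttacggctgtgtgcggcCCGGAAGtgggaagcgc
Psmb1/Tbp: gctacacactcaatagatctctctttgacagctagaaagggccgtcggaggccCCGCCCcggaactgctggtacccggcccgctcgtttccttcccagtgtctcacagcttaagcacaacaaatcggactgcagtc

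The 4 stretches differed in their motif content. The 116 bases between Aimp2, a scaffold of the aminoacyl-tRNA synthetase complex, and Pms2, a mismatch repair gene, held NF-Y matches at 2 places, an ETS match and 2 GC boxes beside or overlapping the ETS match. The 50 bases between Timm23, a subunit of the mitochondrial import channel, and Parg, which degrades poly(ADP-ribose), held 1 ETS match. The 136 bases between the proteasome gene Psmb1 and the TATA-binding protein gene Tbp held 1 GC box, and the 39 bases between Xpc, a DNA damage sensor, and the RNA-binding gene Lsm3 held no match to any of the 9 motifs.

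Most annotated divergent coding pairs carried a control peak. The annotation holds 788 such pairs with 1561 genes on the autosomes, and a peak of any width overlapped both promoters in 717 pairs, or 91.0% (88.8 to 92.8%). Of the pairs, 647 lay at peaks of the chosen width, 40 at wider peaks only and 30 at narrower peaks only, while 1 had a peak at a single promoter and 70 had none. For coding genes paired with a divergent lincRNA (long intergenic noncoding RNA), 175 of 248 pairs had a peak over both promoters (70.6%, 64.6 to 75.9%). Coding pairs whose 5′ ends overlap, which the choice leaves out, had a peak in 263 of 305 cases (86.2%, 81.9 to 89.6%).

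Counted by gene, a peak overlapped the promoter of 91.0% of the paired genes (1421 of 1561), against 46.8% of the coding genes in no divergent pair (8960 of 19161) and 50.1% of all autosomal coding genes. Since neighbouring windows overlap, the TSS itself gives a stricter measure. It does not separate the genes of a pair, as both TSSs lay inside the same peak in 97.2% of member pairs. A paired gene can thus be counted through a peak that belongs to its partner. The TSS lay inside a peak for 87.1% of paired genes (85.4 to 88.7%) and for 41.8% of unpaired genes (41.1 to 42.5%), a difference of 45.3 percentage points (43.4 to 47.0). Without olfactory and vomeronasal receptors and gene models named Gm or Rik the difference was 39.6 points (37.7 to 41.4), with 87.7% of paired and 48.1% of unpaired genes.

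The share of pairs with a peak was highest where the TSSs were closest. Of the pairs at 1 to 100 bp, 95.2% (92.0 to 97.2%, n = 273) had a peak over both promoters. At 101 to 200 bp it was 91.9% (n = 210), at 201 to 300 bp 86.9% (n = 107) and at 301 to 500 bp 92.8% (n = 97). The share was 81.0% at 501 to 750 bp (69.6 to 88.8%, n = 63) and 78.9% at 751 to 1000 bp (63.7 to 88.9%, n = 38). The intervals of the outermost classes did not overlap, while those of neighbouring classes did.

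**Figure D1:**
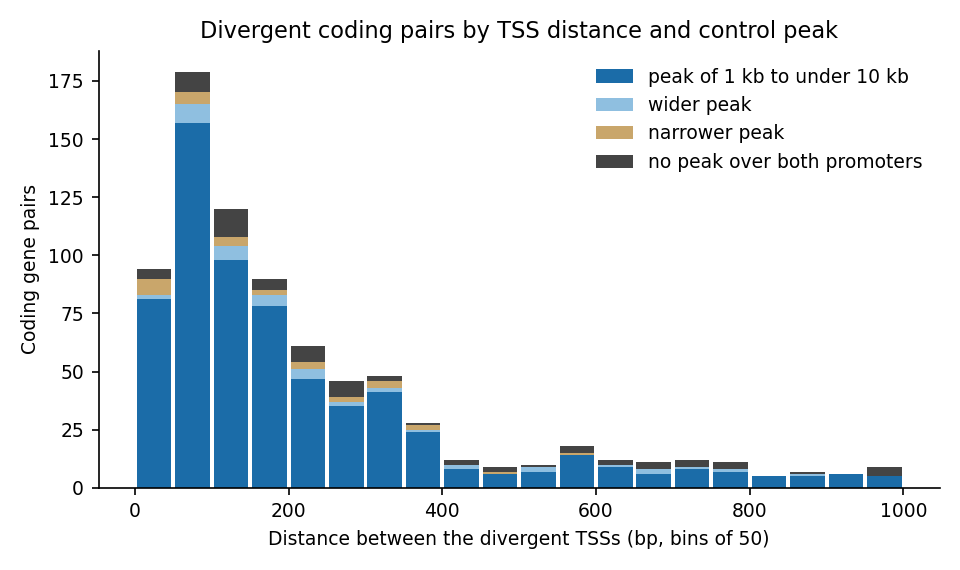
Number of annotated divergent coding pairs in bins of 50 bp of TSS distance (x axis), stacked by the control peak that covers both promoters (colours). Most pairs lie below 400 bp, and pairs without a peak over both promoters occur across the whole range, with 13 of 273 pairs without such a peak at 1 to 100 bp and 8 of 38 at 751 to 1000 bp.

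The median TSS distance of the pairs at the chosen peaks was 143 bp (131 to 157 bp), and the middle 50% ranged from 76 to 284.5 bp. The 70 pairs without a peak had a median distance of 236 bp (163 to 276 bp). The shortest distances were those of Bag4, a co-chaperone, and the RNA decay gene Lsm1 at 1 bp, of Ndufs1/Eef1b2, Slc7a6os/Prmt7 and Dhrs1/Nop9 at 3 bp, and of the translation and transcription initiation genes Eif2b1/Gtf2h3 at 9 bp. Near the upper limit lay Proser3/Hspb6 at 996 bp, Btf3l4/Txndc12 at 987 bp, Smim7/Tmem38a at 985 bp and Zfyve26/Rad51b at 978 bp. Just beyond it, Nacc1/Trmt1 had TSSs 1004 bp apart under a peak of 13345 bp, and Ddias/Prcp TSSs 1005 bp apart under a peak of 4112 bp, while 5330417C22Rik/1700013F07Rik, also 1005 bp apart, had no peak.

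Peaks at divergent pairs were slightly wider than those at single promoters. Their median width was 2281 bp (2126 to 2400 bp), against 2002 bp (1990 to 2055 bp) for 5760 peaks of the same width range that overlap 1 coding promoter and no lincRNA promoter, called single-promoter peaks here. The 142 peaks at divergent coding and lincRNA promoters had a median of 2267 bp (1993 to 2740 bp), and the 443 peaks at 2 or more coding promoters of another arrangement a median of 3174 bp (2759 to 3678 bp). Under 2 kb were 42.7% of the peaks at divergent pairs and 49.9% of the single-promoter peaks, a difference of -7.21 points (-11.2 to -3.11). Over 5 kb were 14.1% and 14.6%.

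The median width was lowest where the TSSs were closest, with 1952.5 bp (1906 to 1999 bp) at 1 to 100 bp. It was 2266 bp (1989 to 2627 bp) at 101 to 200 bp, 2593.5 bp (2116 to 2865 bp) at 201 to 300 bp and 2504 bp (2277 to 3332 bp) at 301 to 500 bp. At 501 to 750 bp it was 2843 bp (2620 to 3367 bp) and at 751 to 1000 bp 2828 bp (2292 to 3146 bp), and the intervals of neighbouring classes overlapped. The choice of peaks did not require a peak to span the distance between the TSSs, though both lay inside it in 97.2% of pairs. How far the width follows from the TSS distance was not tested.

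Both TSSs lay inside the peak in 629 of 647 pairs (97.2%, 95.6 to 98.2%), 1 TSS lay inside in 11 pairs and none in 7. In those 7 pairs the peak overlapped both promoters from 1 side of the pair, as at Peg3/Usp29, an imprinted pair, where a peak of 3942 bp lay within Peg3. At Rnf151/Rps2 the peak of 6874 bp began 60 bp beyond the TSS of Rnf151, past that of the ribosomal protein gene Rps2 as well. It extended from there in the direction of Rps2.

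The peak reached a median of 961 bp (928 to 1002 bp) into the minus-strand gene and 949 bp (902 to 999 bp) into the plus-strand gene. Taken over both genes of each pair the median reach was 956.5 bp (927 to 992 bp). At single-promoter peaks, the median was 1210 bp (1189 to 1229 bp) downstream of the TSS and 750.5 bp (735 to 764 bp) upstream of it. The reach on both sides and the TSS distance add up to the peak width, so the order of these values largely follows from the width.

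The longer side lay in the gene of longer span in 47.1% of pairs (43.2 to 50.9%), so that a preference for the longer gene was not detectable at this precision. The sides of an individual peak were often unequal, with a median of 1244 bp on the longer side and 763 bp on the shorter. They differed by less than 2-fold in 59.5% of divergent pairs and 47.5% of single-promoter peaks, a difference of 12.0 points (8.00 to 16.0).

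At 1000 bp from the midpoint of the TSSs, 55.8% of the peaks still covered the position on the minus-strand side and 56.1% on the plus-strand side. At 2000 bp the shares were 18.2% and 17.9%. Single-promoter peaks covered the position 1000 bp upstream of the TSS in 31.9% and the position 1000 bp downstream in 66.4%. The peaks at coding and lincRNA pairs were closer to the latter, with 34.5% on the lincRNA side and 70.4% on the coding side.

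**Figure D2:**
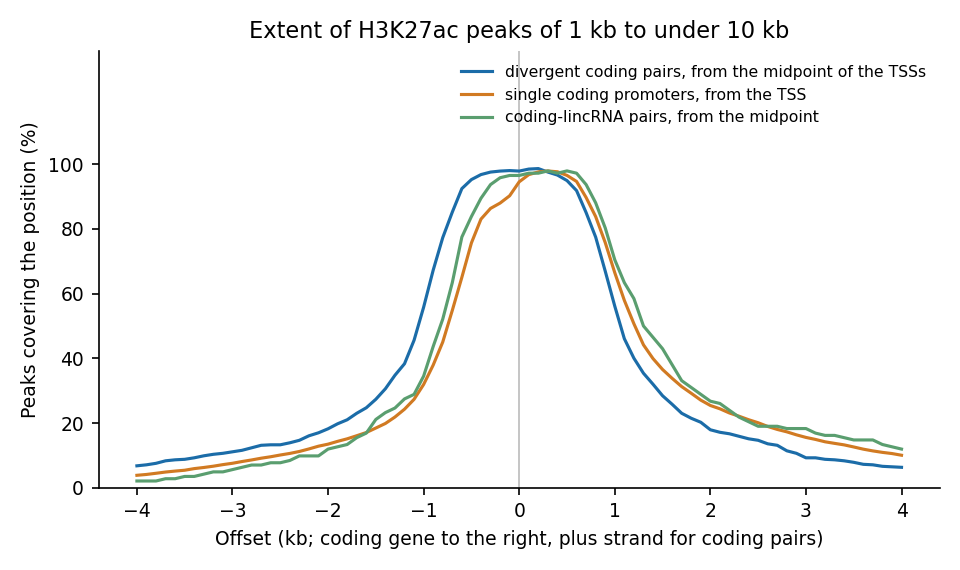
Percentage of peaks at least 1 kb and under 10 kb wide that cover each position (y axis) by the offset in kb (x axis) from the midpoint of a TSS pair or from a single TSS. For divergent coding pairs both sides are coding genes and the direction is that of the chromosome, so their line (55.8% and 56.1% at 1000 bp) is close to symmetric by construction, while the other lines are turned so that the coding gene is on the right.

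At the edges of the width range, narrow peaks lay at Fam227b/Dtwd1 (1010 bp), Sgsh/Slc26a11 (1048 bp), Draxin/Mad2l2 (1079 bp) and Vps53/Fam57a (1085 bp). Sgsh encodes a lysosomal sulfamidase and Mad2l2 a subunit of a translesion DNA polymerase. The widest lay at Ncapd2/Mrpl51 (9814 bp), a condensin subunit and a mitochondrial ribosomal protein, at Mrps18b/Ppp1r10 (9438 bp), Mms19/Ubtd1 (9320 bp), Gatc/Triap1 (9277 bp) and Pld3/2310022A10Rik (9223 bp). The Gatc/Triap1 peak was the 1 member that also overlapped a lincRNA promoter. Just under the limit of 1000 bp lay peaks of 982 bp at Rom1/Eml3 and Cenpj/Parp4, and just over the upper limit peaks of 10496 bp at Shld2/Glud1 and 10575 bp at Zranb3/R3hdm1. The widest peak over any divergent coding pair spanned 70157 bp at Lamtor2/Ubqln4, followed by 39715 bp at Cbx5, a heterochromatin protein, and Hnrnpa1, a splicing regulator.

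Most divergent pairs stood alone. In 598 of the 633 peaks the pair's own promoters were the only coding or lincRNA promoters overlapped, and 35 peaks overlapped 3 or more coding promoters, at most 4. Some of the 35, such as the peak at Chtf8/Utp4, count the same gene name more than once. The nearest other peak was a median of 18814 bp away (17221 to 20718 bp), against 15311 bp (14714 to 16033 bp) for single-promoter peaks. The genes were shorter, with a median span of 18800 bp (17610 to 20351 bp) against 25176 bp (24282 to 26378 bp). The chromosomes held between 12 (chromosome 18) and 60 (chromosome 11) of the peaks, and the share of pairs with a peak ranged from 81.5% on chromosomes 6 and 19 to 100% of the 12 pairs on chromosome 18.

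Base composition was measured in the 300 bases from 250 before to 50 after each TSS. The peaks as a whole had a median GC content of 53.3% (52.6 to 53.9%), close to the 53.6% (53.4 to 53.8%) of single-promoter peaks. At the promoters themselves, the median GC content was 63.0% (62.3 to 63.7%) in member pairs and 61.3% (61.0 to 61.7%) at single-promoter peaks. The larger difference was in CpG dinucleotides, counted as the observed over the expected number from the C and G content. The median ratio was 0.88 (0.87 to 0.89) in member pairs, 0.85 (0.82 to 0.88) at coding and lincRNA pairs, 0.79 (0.78 to 0.79) at single-promoter peaks and 0.57 over all autosomal coding genes. A ratio of 0.6 or more, a usual limit for CpG islands, was found at 92.7% of the promoters of member pairs (91.2 to 94.0%), 89.4% (83.3 to 93.5%) at coding and lincRNA pairs, 76.3% (75.2 to 77.4%) at single-promoter peaks and 47.8% of all coding genes.

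A window of a close pair also holds the partner's promoter, so windows were also set once per pair. In 300 bp centred on the midpoint of the TSSs, 90.1% of 647 pairs had a CpG ratio of 0.6 or more, against 83.3% of single promoters in 300 bp centred on the TSS, a difference of 6.79 points (4.08 to 9.08). The CpG ratio fell with distance, from a median of 0.91 at 1 to 100 bp to 0.90, 0.86, 0.84 and 0.75 in the next classes and 0.70 at 751 to 1000 bp. Median GC content was 65% in the closest and 59.7% in the most distant pairs.

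**Figure D3:**
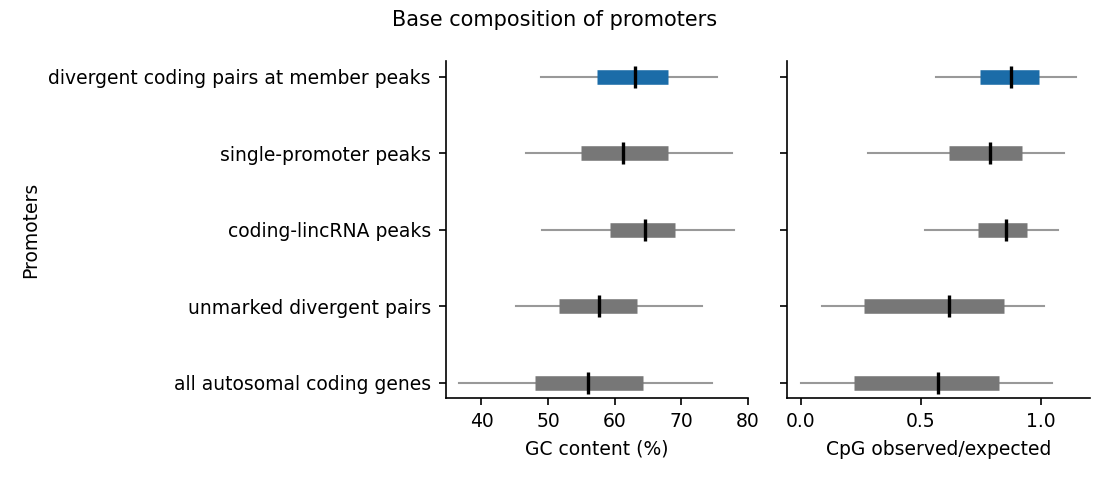
GC content in percent (left) and CpG observed over expected (right) of promoters from 250 bp before to 50 bp after the TSS, with the median (tick), the middle 50% (bar) and the 5th to 95th percentile (line). Promoters of member pairs have the highest median CpG ratio (0.88), and those of divergent pairs without a peak reach down to ratios near those of all coding genes.

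Motifs were searched as fixed strings on both strands in the same 300 bases. They were NF-Y (CCAAT), ETS (CCGGAAG), NRF1 (GCGCNNGCG), the GC box of SP factors (GGGCGG), YY1 (AAGATGGCG), the cAMP response element CRE (TGACGTCA), the E-box of bHLH factors (CACGTG), ZBTB33 (TCTCGCGAG) and the TATA box (TATAAA). Matches of different motifs overlapped in at most 24 promoters of member pairs, for NRF1 and the GC box. A match describes the letters and not binding.

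In the window of 300 bases before and at the TSS, ETS was the motif with the largest difference between member pairs and single promoters, though not in pairs over 300 bp apart. It was found in 31.1% (28.7 to 33.7%) of the 1281 promoters of member pairs, 19.2% (18.2 to 20.2%) of single-promoter peaks, 18.3% (12.8 to 25.5%) of coding and lincRNA pairs, 6.47% (3.44 to 11.8%) of divergent pairs without a peak and 11.5% of all coding promoters. The difference between divergent pairs and single promoters was 12.0 points (9.30 to 14.8). In windows centred once on each pair or single TSS it was 10.5 points (6.89 to 14.3), with 30.8% against 20.3%. In the 50 bp on each side of the TSS the shares were 17.4% and 12.3%, a difference of 5.08 points (2.92 to 7.41). The matches gathered near the TSS, as 11.1% of the promoters of divergent pairs had a match in the 50 bp just upstream and 8.04% in the 50 bp just downstream, against 7.15% and 6.60% of single promoters. At least 1 promoter of the pair had the motif in 237 of 647 pairs (36.6%).

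Which motif was found depended on the distance between the TSSs. The ETS motif occurred in 39.7% (35.4 to 44.2%) of promoters in pairs at 1 to 100 bp, 35.2% (30.4 to 40.4%) at 101 to 200 bp, 18.3% (13.1 to 24.9%) at 201 to 300 bp and 19.9% (15.7 to 24.8%) at 301 to 1000 bp. In pairs over 300 bp apart, whose windows do not reach the partner's TSS, the difference from single promoters was 0.83 points (-3.43 to 5.83). For pairs over 300 bp apart, a difference in the ETS share from single promoters was thus not detectable. The NF-Y motif ran the other way, with 27% (23.2 to 31.1%) at 1 to 100 bp, 48.4% (43.2 to 53.7%) at 101 to 200 bp, 57.9% (50.3 to 65.2%) at 201 to 300 bp and 47.1% (41.5 to 52.8%) at 301 to 1000 bp. NRF1 matches fell from 41.0% (36.6 to 45.5%) at 1 to 100 bp to 22.6% (18.2 to 27.6%) at 301 to 1000 bp. How much of these differences comes from the part of the window that lies in the partner gene was not tested beyond the windows given here.

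Smaller differences were seen for other motifs. NRF1 was found in 33.6% of promoters of member pairs and 27.7% of single promoters (difference 5.86 points, 3.07 to 8.73), but the difference was 2.47 points (-1.24 to 6.36) with 1 window per pair, 0.76 points (-1.42 to 3.10) within 50 bp of the TSS and -5.04 points (-9.57 to 0.15) in pairs over 300 bp apart. YY1 was found in 6.01% and 3.25% (2.76 points, 1.49 to 4.26), or 1.41 points (-0.25 to 3.56) with 1 window per pair, 0.35 points (-0.54 to 1.46) within 50 bp of the TSS and 0.087 points (-1.50 to 2.81) in pairs over 300 bp apart. ZBTB33, the motif of the zinc finger protein Kaiso, was found in 3.28% and 1.65%, and the difference was 1.49 points (0.36 to 3.16) with 1 window per pair and 0.017 points (-1.0 to 2.21) in pairs over 300 bp apart. The GC box was common in both classes, with 71.3% and 67.3%, and 69.6% and 71.4% in the centred windows (-1.84 points, -5.67 to 1.78). In the 50 bp on each side of the TSS the GC box was less frequent in divergent pairs, with 41.0% against 46% (-5.02 points, -7.98 to -2.02). NF-Y was found in 41.5% and 38.8% (2.65 points, -0.30 to 5.64), and its difference was 7.39 points (3.44 to 11.4) in centred windows, 8.20 points (2.48 to 14.0) in pairs over 300 bp apart and 0.89 points (-2.02 to 3.71) with 500 bp on each side of the TSS. E-boxes were found in 10.6% and 11% (-0.37 points, -2.15 to 1.6), and the difference was -4.66 points (-7.05 to -1.22) in pairs over 300 bp apart. CREs were found in 4.84% and 3.56% (1.28 points, 0.12 to 2.67), with 0.98 points (-0.46 to 2.91) in centred windows and -1.89 points (-2.97 to 0.33) in pairs over 300 bp apart.

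Matches to the TATA box letters were rare. They were found on either strand in 3.90% of the promoters of member pairs, 6.32% of single promoters and 12.5% of all coding promoters. The difference from single promoters was -2.42 points (-3.56 to -1.07) in the window before the TSS and 0.40 points (-1.02 to 2.32) in centred windows. These shares count a match anywhere in the window, and not TATA boxes at a set position. At -50 to 0 bp from the TSS, 0.94% of member and 1.41% of single promoters had a match. The shares were 0.70% and 0.64% at -100 to -50 bp, and 0.62% and 1.94% at -250 to -200 bp. In close pairs that last part of the window can lie in the partner gene. Split by GC content, the ETS motif was found in 25.4% (21.4 to 29.8%) of member and 20.1% (18.6 to 21.8%) of single promoters below 59.7% GC, where the intervals overlap slightly. The shares were 39% (34.5 to 43.6%) and 23.1% (21.1 to 25.3%) between 59.7% and 66.7% GC, and 28.7% (24.7 to 33.2%) and 14.3% (12.7 to 16.0%) above. The GC box was found in 50.5% and 42.0% in the lowest class but in 73.3% and 78.4% in the middle and 89.3% and 92.1% in the highest.

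**Figure D4:**
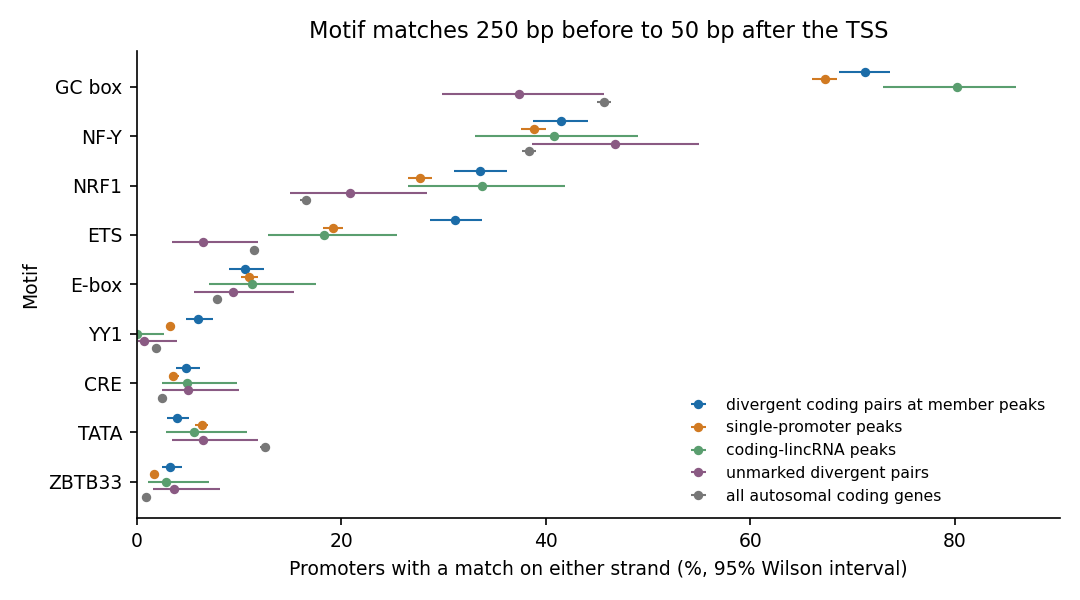
Percentage of promoters with a match to each of 9 motifs (x axis) from 250 bp before to 50 bp after the TSS, in 5 classes of promoters (colours), with 95% Wilson intervals. The ETS point of the divergent pairs (31.1%) lies above those of the other classes, and its TATA point (3.90%) lies below that of all coding genes (12.5%).

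Several families of core cellular machinery had a higher share of their genes at these promoters than coding genes as a whole, although only 182 of the 647 pairs had a gene of any of the 16 families listed. Of all autosomal coding genes, 6.18% were at one of the peaks, and the families, defined by gene symbol, are read beside that share without a test. Mitochondrial ribosomal proteins were at 21 of 78 (26.9%, 18.3 to 37.7%), DNA replication and repair genes at 28 of 110 (25.5%, 18.2 to 34.3%), genes of the centrosome and cilium at 16 of 63 (25.4%, 16.3 to 37.3%), RNA splicing genes at 15 of 69 (21.7%) and oxidative phosphorylation subunits and assembly factors at 22 of 104 (21.2%). A gene at one of the peaks has to be marked, and most genes of these families were, so the share was also taken over marked genes, of which 1281 of 10381 (12.3%) were at the peaks. It was 27.3% (18.6 to 38.1%), 26.7% (19.1 to 35.8%), 30.8% (19.9 to 44.3%), 22.7% (14.3 to 34.2%) and 22.9% (15.6 to 32.3%) in the same order, and in all 5 families the lower bound was above 12.3%.

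DNA repair genes included the breast cancer gene Brca1, the kinases Atm, Chek2 and Prkdc, and the mismatch repair genes Pms1 and Pms2. Replication genes of the same family included the helicase subunit Mcm4 and the origin recognition genes Orc1, Orc3 and Orc4. The splicing genes included the snRNP gene Snrpd2, beside Qpctl at 431 bp, and the helicase gene Ddx5, which shared its promoter with the centrosome gene Cep95 at 720 bp. Among the cilium genes was Cep290, beside Tmtc3 at 208 bp under a peak of 1538 bp.

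Other families had lower shares, and their intervals over marked genes held 12.3% or, for zinc finger genes, lay below it. Aminoacyl-tRNA synthetases were at 6 of 38 (15.8%, 7.44 to 30.4%), chaperones at 14 of 89 (15.7%, 9.61 to 24.7%), replication-dependent histones at 9 of 67 (13.4%, 7.23 to 23.6%), proteasome subunits at 6 of 47 (12.8%, 5.98 to 25.2%) and cytosolic ribosomal proteins at 9 of 76 (11.8%, 6.36 to 21.0%), where 9 of the 74 marked genes (12.2%) were at the peaks. Genes named Tmem were at 19 of 235 (8.09%), zinc finger genes named Zfp at 19 of 385 (4.94%) and genes named as solute carriers at 16 of 358 (4.47%). Families were counted by symbol, so Slc4a1ap and Slc7a6os, which are not transporters, the intraflagellar transport gene Hspb11 and the proteasome assembly gene Psmg2 are among the solute carriers, chaperones and proteasome genes counted. Developmental transcription factors were at 3 of 185 (1.62%, 0.55 to 4.66%), namely Foxa3 with Sympk, Foxj3 with Frg2f1, and Foxm1, a cell cycle regulator, with Rhno1. Only 4 of the 185 were in an annotated divergent pair at all, and 57 of the 185 had a peak. Of the collagens and laminins only Col4a3bp was counted by its symbol, and it encodes a ceramide transporter and not a collagen. None of the 1127 olfactory receptors was in a divergent coding pair.

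**Figure D5:**
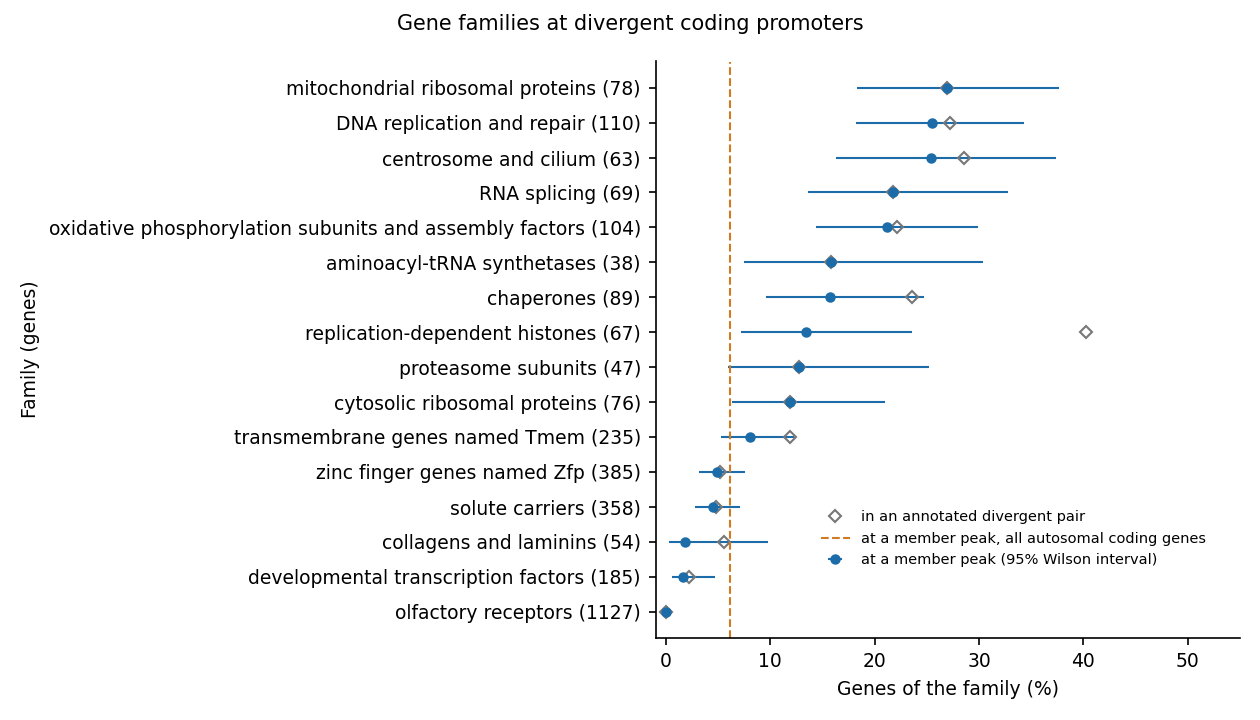
Percentage of the genes of each family (x axis, number of genes in parentheses) at one of the 633 peaks (points, 95% Wilson intervals) and in any annotated divergent coding pair (diamonds), with the share of all autosomal coding genes at the peaks as a dashed line (6.18%). Mitochondrial ribosomal, repair, centrosome, splicing and oxidative phosphorylation genes lie to the right of the line and developmental transcription factors to the left, while histones are often paired but less often at peaks of this width.

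Few pairs could be compared by family, since only 25 of the 647 had both genes in the families listed. Of these 25 pairs, 9 had both genes in 1 family, and no expected share was worked out. Among the 9 were Mcm4/Prkdc (2562 bp wide, TSSs 489 bp apart), the helicase and the DNA-dependent protein kinase, and Mrpl46/Mrps11 (1759 bp, 30 bp), of the large and the small mitochondrial ribosomal subunit. A further 3 were zinc finger pairs, Zfp668/Zfp646, Zfp942/Zfp943 and Zfp944/Zfp758, with peaks of 3039, 2745 and 4990 bp. No combination of different families occurred in more than 2 pairs.

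The other 4 same-family pairs were replication-dependent histones, which are arranged in clusters and are transcribed in S phase. These were Hist1h2ak/Hist1h2bn (6480 bp wide, TSSs 296 bp apart), Hist1h2bh/Hist1h3f (6201 bp, 660 bp), Hist1h2bl/Hist1h2ai (8167 bp, 279 bp) and Hist2h2ac/Hist2h2be (3621 bp, 239 bp). The Hist2h2ac/Hist2h2be peak also covered the pair Bola1/Hist2h2ab. Of the 67 histone genes 27 (40.3%) were in divergent pairs, of which 19 were marked and 9 were at peaks of the chosen width. A further 5 H2A/H2B pairs, such as Hist1h2ae/Hist1h2bg under 19177 bp, lay below wider peaks, and 4, such as Hist1h2ac/Hist1h2bc, had no peak. Histone genes are near-identical copies of each other, so reads can be hard to place there.

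Between the TSSs of histone pairs the sequence differed from the 4 stretches printed above: they are shown for their NF-Y and TATA matches, were picked after the values were seen, and had no exon between the TSSs. Capitals again mark motif matches, and the bases are GRCm38, plus strand, 5′ to 3′. Hist2h2ac/Hist2h2be lies at chr3:96220881-96221118, Hist1h2bl/Hist1h2ai at chr13:21716144-21716421 and Hist1h2ak/Hist1h2bn at chr13:21753828-21754122.
Hist2h2ac/Hist2h2be: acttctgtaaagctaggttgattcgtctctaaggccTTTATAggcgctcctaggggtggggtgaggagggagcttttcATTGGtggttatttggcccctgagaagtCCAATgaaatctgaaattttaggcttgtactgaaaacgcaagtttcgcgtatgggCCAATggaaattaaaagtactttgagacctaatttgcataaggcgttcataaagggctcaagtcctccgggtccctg
Hist1h2bl/Hist1h2ai: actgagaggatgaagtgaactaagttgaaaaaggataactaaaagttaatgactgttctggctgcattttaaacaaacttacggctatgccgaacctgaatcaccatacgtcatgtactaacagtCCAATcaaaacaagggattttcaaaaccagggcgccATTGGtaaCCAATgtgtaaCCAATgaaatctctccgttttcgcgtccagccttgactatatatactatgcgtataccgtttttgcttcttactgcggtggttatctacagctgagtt
Hist1h2ak/Hist1h2bn: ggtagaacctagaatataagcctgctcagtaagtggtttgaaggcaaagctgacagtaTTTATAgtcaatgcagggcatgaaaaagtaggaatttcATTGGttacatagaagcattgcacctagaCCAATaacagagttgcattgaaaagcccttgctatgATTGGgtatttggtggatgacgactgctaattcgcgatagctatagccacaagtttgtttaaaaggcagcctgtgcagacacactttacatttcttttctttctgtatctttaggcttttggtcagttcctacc

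These held 3, 4 and 3 NF-Y matches and none to ETS, NRF1 or the GC box. Their GC contents were 45.8%, 40.3% and 40.3%, and Hist2h2ac/Hist2h2be and Hist1h2ak/Hist1h2bn each had 1 match to the TATA box.

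Of 26 gene pairs listed as known to share a promoter, 13 were among the peaks. Hspd1/Hspe1, mitochondrial chaperonin genes (14342 bp wide), and the DNA repair gene Apex1 with Osgep (11053 bp) were at wider peaks, 9 had overlapping 5′ ends in this annotation and 2, Wrap53/Trp53 and Alkbh2/Ung, had TSSs over 1000 bp apart. In 25 of the 26 a peak covered both promoters, and the exception was Psmb9/Tap1, genes of antigen processing that interferon induces.

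The 13 peaks varied in where they lay. At Brca1/Nbr1 (6061 bp wide, TSSs 270 bp apart) the peak reached 4006 bp into Brca1 and 1784 bp into Nbr1. At Timm23/Parg (7701 bp, 51 bp) it reached 6979 bp into Timm23 and 670 bp into Parg, the most unequal of the 13. At Mrps12/Sars2 (3571 bp, 182 bp) it reached 2663 bp into the mitochondrial ribosomal gene and 725 bp into the synthetase gene. In others the sides were alike, as at Gart/Son (8313 bp, 554 bp), a purine synthesis gene and a splicing gene, with 3912 and 3846 bp, at Atm/Npat (3210 bp, 307 bp) with 1480 and 1422 bp, and at Tsc2/Nthl1 (1733 bp, 55 bp), a growth regulator and a base excision repair gene, with 770 and 907 bp. The remaining peaks were 6415 bp wide at Hscb/Chek2, 8198 bp at Emc8/Cox4i1, 6334 bp at Ranbp1/Trmt2a, 3862 bp at Aimp2/Pms2, 3755 bp at Psmb1/Tbp, 2562 bp at Mcm4/Prkdc and 2518 bp at Xpc/Lsm3.

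The 70 divergent pairs without a peak at either promoter had fewer CpG-rich promoters than the member pairs. Their promoters had a median GC content of 57.7% (55.0 to 59.3%) and a median CpG ratio of 0.62 (0.54 to 0.72), and 53.2% (45.0 to 61.3%) of them had a ratio of 0.6 or more, against 92.7% in member pairs. In 34 of the 70 pairs both promoters nevertheless had a ratio of 0.6 or more, and 15 included a gene model named Gm or Rik. The nearest peak was a median of 15.5 kb away, 26 pairs had a peak within 10 kb and 7 were over 100 kb from any peak. The list cannot show whether such a promoter had no signal or fell below the authors' thresholds.

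Among the farthest from a peak were 4931428L18Rik/Pih1d3 (271 kb), 1700029J07Rik/Ufsp2 (187 kb) and Ppp1r3d/Fam217b (179 kb). They were followed by Plcz1/Capza3 (151 kb), both sperm genes, Col4a4/Col4a3 (138 kb), basement membrane collagens, Rpgrip1l/Fto (121 kb), Prss55/Prss51 (91.3 kb), the testis histones Hist1h2ba/Hist1h2aa (66.9 kb) and Kctd19/Lrrc36 (64.0 kb). Several are known from testis, kidney or ciliated cells. They were not uniform in sequence, as the CpG ratio was 0.24 and 0.22 at Plcz1 and Capza3 and 1.08 and 1.01 at Ppp1r3d and Fam217b. The stress-inducible chaperone pair Hspa1a/Hspa1l, with TSSs 547 bp apart, also had no peak, and the nearest lay 8.74 kb away.

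An unmarked pair can also be rich in CpG, as the stretch between Ppp1r3d and Fam217b shows. It was picked from the 10 farthest pairs after the values were seen, is without an exon between the TSSs and is given as before. It lies at chr2:178414473-178414523.
Ppp1r3d/Fam217b: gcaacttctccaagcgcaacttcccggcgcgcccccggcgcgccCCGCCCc

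This stretch, 78.4% GC, held 1 GC box. Over all promoters of unmarked pairs the NF-Y share was 46.8% (38.7 to 55.0%) and the ETS share 6.47%, against 41.5% and 31.1% in member pairs.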

How the data were processed

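H3K27ac ChIP-seq of mESCs was analysed from the deposited control peak list, which gives start and end positions (score or height not included) pooled over both control replicates. The authors trimmed reads with Cutadapt, aligned them with bwa meme to the mouse mm10 and human genomes together, discarded duplicates (Picard 2.9.1) and reads of low mapping quality (SAMtools 1.4), called peaks (LanceOtron), joined those less than 2 kb apart (Bedtools), and filtered them on height and on ATAC-seq peaks. Merging lengthens peaks and joins neighbours, and the filters remove weak promoters.

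Coding and lincRNA genes (27706) came from GENCODE M21 on GRCm38, an earlier release than the study's, with the TSS of the transcript of longest genomic span. An overlap of 1 bp counted. Sequences came from the RefSeq GRCm38.p6 assembly. Shares have Wilson, differences Newcombe and medians binomial order-statistic intervals. The list pools both control replicates, so no test over samples was run. Overlap, interval and motif functions were tested on simulated data. The members, families, motifs and known pairs were chosen with earlier results of these data known. Genes named are the known pairs, the 5 widest, narrowest, closest and most distant members, same-family pairs, the 10 unmarked pairs farthest from a peak, and pairs at the limits. Other genes named among families, and at peaks without both TSSs inside, were picked after their values were seen, as were the motif windows centred on pairs and the classes of TSS distance for motifs. Alternatives were other TSS choices, windows, overlaps and distances. Some pairs that the naming rule picks are not reported here. Treated samples were not analysed here. Python 3.11.15 was used with numpy 2.4.6, scipy 1.17.1, pysam 0.24.0 and matplotlib 3.10.9.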

Additional observations from a re-analysis of the deposited data

How the results depend on the processing

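The number of peaks stayed between 563 and 699 under other TSS choices, promoter windows, overlaps and distances. The share of pairs with a peak was 87.3% with TSSs up to 2000 bp apart and 87.1% when each TSS itself had to be inside a peak. The median TSS distance was 125 bp with a limit of 500 bp and 159 bp with a limit of 2000 bp. With 500 bp on each side of the TSS, the median GC content was 60.4% and the CpG ratio 0.79, and motif shares rose to 66.4% for NF-Y, 45.7% for ETS, 52.7% for NRF1, 91.0% for the GC box, 10.4% for YY1, 22.1% for the E-box and 13.9% for TATA, while single promoters had 65.5%, 31.2%, 47.4%, 87.3%, 6.35%, 22.7% and 19.6%, so that the ETS difference was 14.5 points and that of TATA -5.71. The ETS difference from single promoters was 5.08 points within 50 bp of the TSS and 0.83 points in pairs over 300 bp apart, both chosen after seeing the data. Other motif differences moved with the window too. With 1 window per pair the GC box difference turned from 4.00 to -1.84 points and that of TATA from -2.42 to 0.40, NF-Y rose from 2.65 to 7.39 and NRF1 dropped from 5.86 to 2.47. Within 50 bp of the TSS the GC box difference was -5.02 points. In pairs over 300 bp apart those of NRF1 and the E-box were -5.04 and -4.66 points. No paired analysis was possible because both control replicates were pooled in the list and no result comes from a test. Stricter peak thresholds were not run since the list holds no score, and the share of pairs with a peak has no value where peaks with exactly 2 coding promoters are required. The reads behind each peak and the replicate error cannot be read from the list.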
